A study of Homo sapiens with 18 samples.

Results

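The integrin and laminin chain genes are a set of 31 genes, chosen by gene symbol among the 61541 genes listed in the RNA-seq tables: 21 genes that encode integrin subunits and 10 that encode laminin chains. RNA was sequenced from A549, a human lung adenocarcinoma line of wild-type genotype, in 6 groups of 3 libraries. In the first table, untreated cells at day 3 (control 3 days) were the reference for cells kept in 5 mM sodium propionate (SP) for 3 days or for 12 days. In the second table, untreated cells at 24 h (control 24 h) were the reference for SP for 3 h and SP for 24 h. SP 12 days and SP 3 h therefore had no control of their own time, so that time in culture and SP cannot be told apart in these comparisons. All groups are of 1 cell line, and the study calls its replicates biological while the labels do not name separate cultures, so that the tests measure the spread between these libraries, which may be technical.

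Integrins are receptors made of an alpha and a beta subunit that span the cell membrane and bind matrix proteins or other cells. Laminins are secreted trimers of an alpha, a beta and a gamma chain and form the sheet of the basement membrane on which epithelial cells sit. In epithelia, the integrin of ITGA6 and ITGB4 holds cells to laminin-332 (a trimer that contains LAMA3 and LAMB3) through hemidesmosomes, while the integrin of ITGA3 and ITGB1 binds laminin-332 and laminins that contain LAMA5.

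Depth was 15425281 to 21992046 counted reads per library in the table of 3 and 12 days and 14187401 to 43765330 in that of 3 and 24 h. Of the 31 members, 29 and 30 passed the filter on low counts in these tables. The integrin gene ITGA8 had no read in any of the 18 libraries, and ITGA9 passed only in the second table. Epithelial markers were high in all groups, and their summed level over 6 genes was higher with SP: 6006 to 7739 CPM (read counts scaled to the size of each library) in control 3 days, 11710 to 12590 in SP 3 days and 11070 to 15380 in SP 12 days, and 6856 to 8380 in control 24 h against 12320 to 13900 in SP 24 h. All 6 passed as higher at 24 h, 3 days and 12 days. The sum of 7 alveolar markers was 103 to 120.3 CPM in control 3 days, 198.2 to 224.4 in SP 3 days and 146.9 to 181 in SP 12 days, most of it ABCA3, and 3 of the 4 tested were higher at 3 days, while SFTPA1 had no read in 4 of the 6 groups and the group mean of SFTPB was at most 0.25 CPM. The sum of 8 fibroblast markers was 18.7 to 20.0 CPM in control 3 days, 90.7 to 107 in SP 3 days and 68.1 to 93.0 in SP 12 days, and 8.68 to 25.6 in control 24 h against 81.9 to 108 in SP 24 h. Among them, COL1A2 had no read in the first table and the group mean of DCN was at most 0.181 CPM, while COL1A1 and THY1 made up most of the sum. The sum of 7 leukocyte markers was 19.2 to 20.9 CPM in control 3 days, 37.2 to 40.9 in SP 3 days and 15.6 to 30.2 in SP 12 days, and 5.72 to 8.31 in control 24 h against 19.5 to 22.3 in SP 24 h. CD14 made up most of it, CD3E had no read in any library and the group mean of PTPRC was at most 0.052 CPM. The part of these marker sums in the results was not tested. In bulk RNA, fewer cells of a type and less RNA per cell cannot be told apart. The libraries of the second table differed in their trend with GC content. The median of GC-rich genes lay between 0.47 (log2) under the table's mean in control 24 h replicate 1 and 0.325 over it in SP 24 h replicate 3, and it was −0.27 in SP 3 h replicate 3 and −0.22 in control 24 h replicate 2.

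The bases just upstream of the start are shown for members that passed the thresholds of the study (2-fold or more with an adjusted p below 0.0001) in a comparison with control and that have an entry in the RefSeq promoter table (GRCh38.p14). They are written 5′ to 3′ on the gene's strand, and bases inside the annotated gene are left out. Capitals mark the AP-1 letters TGAGTCA, the E-box letters CACCTG and the GC box letters GGGCGG on either strand.
ITGA4 (chr2:181457136-181457201, plus strand): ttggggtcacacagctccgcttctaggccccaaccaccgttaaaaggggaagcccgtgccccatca
ITGA5 (chr12:54419267-54419516, minus strand): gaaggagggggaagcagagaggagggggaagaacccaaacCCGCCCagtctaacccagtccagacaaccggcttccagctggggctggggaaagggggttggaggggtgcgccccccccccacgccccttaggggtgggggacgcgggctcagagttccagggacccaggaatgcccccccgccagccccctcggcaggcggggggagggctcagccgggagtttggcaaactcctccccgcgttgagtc
ITGA10 (chr1:145910112-145910300, minus strand): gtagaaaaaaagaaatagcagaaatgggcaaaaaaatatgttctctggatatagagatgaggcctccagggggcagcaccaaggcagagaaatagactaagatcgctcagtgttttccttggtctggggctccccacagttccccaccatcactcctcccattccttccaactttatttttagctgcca
LAMB3 (chr1:209652426-209652675, minus strand; the most 5′ of 3 starts): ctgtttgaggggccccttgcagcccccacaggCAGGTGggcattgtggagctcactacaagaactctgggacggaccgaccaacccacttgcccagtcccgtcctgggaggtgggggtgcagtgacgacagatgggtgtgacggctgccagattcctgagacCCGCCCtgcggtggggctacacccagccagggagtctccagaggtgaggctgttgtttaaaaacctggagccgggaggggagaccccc
The LAMB3 window held 1 E-box and 1 GC box, the ITGA5 window 1 GC box, and the 250 bases before the starts of ITGA4 and ITGA10 held none of the 3 motifs. Of all 35116 windows of 250 bases in the table, 17.5% held the E-box, 42.6% the GC box and 4.2% the AP-1 letters. Of the 30 windows of the 23 members with an entry, 7 held an E-box, 16 a GC box and 2 the AP-1 letters. These are matches of letters only. LAMA1 and LAMC3, which also passed the thresholds, are named without a sequence.

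Per kilobase of exon, the members with reads in control 3 days ranged from 0.0106 CPM per kb (ITGA9) to 137 CPM per kb. Length here is that of all annotated exons of a gene together, such as 14561 bases for ITGB1 and 6515 for ITGB5. The length of the transcripts in these cells was not measured, and the order between genes depends on the length used. The highest level was that of ITGB5, a beta subunit that pairs with alpha V, at 137 ± 9.83 CPM per kb (SD, n = 3). ITGB1, the beta subunit shared by most integrins of this set, followed at 105.5 ± 6.56 CPM per kb. LAMA5, the alpha chain of most adult epithelial basement membranes, was at 62.0 ± 4.53 and ITGA3 at 60.5 ± 6.53 CPM per kb, and the libraries of these 2 genes overlapped. ITGB4, LAMC1, LAMB1, LAMB2, ITGA6 and ITGA2 came next in this order, each apart from its neighbour in all libraries, so that 10 members were above 10 CPM per kb. Another 14 members were under 1 CPM per kb. Below ITGA11 most neighbours overlapped, and their order is not defined by these libraries. In SP 12 days the order at the top had turned by this measure. ITGB1 (137 ± 0.66 CPM per kb) lay above ITGB5 (119.5 ± 10.3 CPM per kb), and ITGA3 (116 ± 9.44 CPM per kb) was within the spread of ITGB5. The same order was present without SP in control 24 h. There ITGB1 (116.7 ± 14.1 CPM per kb) lay above ITGB5 (78.1 ± 8.62 CPM per kb), which overlapped with ITGA3 (72.6 ± 28.4 CPM per kb).

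**Figure D1:**
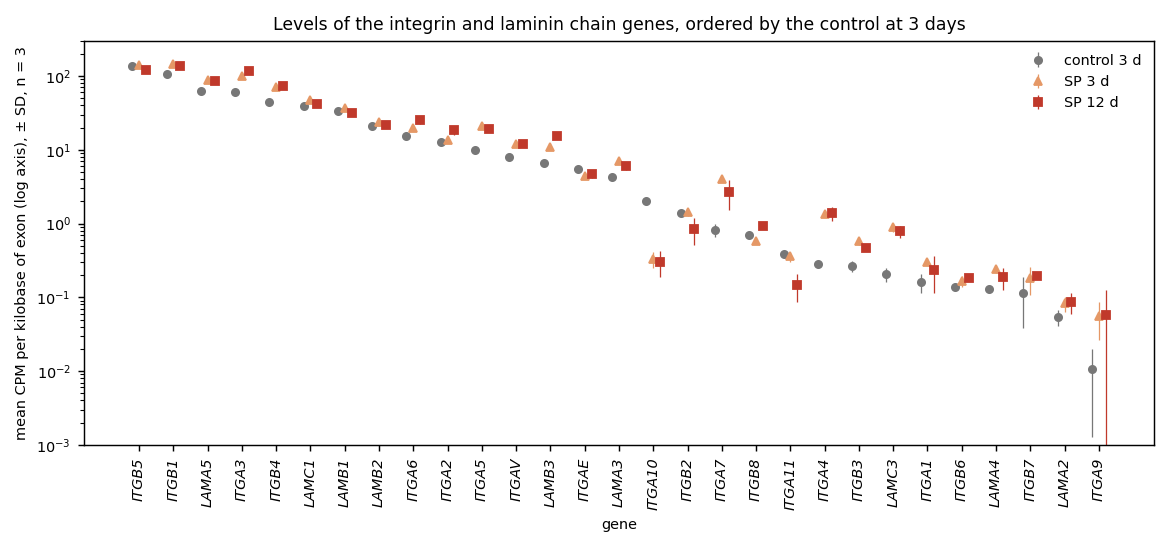
Mean level of each member in CPM per kilobase of exon on a log axis, ± SD over 3 libraries, in control 3 days (grey circles), SP 3 days (orange triangles) and SP 12 days (red squares). Error bars that would reach 0 end at the axis. ITGA8 and LAMA1, without reads in control 3 days, are not drawn. ITGB5 (137 CPM per kb in the control) is the highest, and ITGA10 is the gene that drops furthest below its control.

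Most of the set was higher with SP at 3 and 12 days. At 3 days, 17 of 29 tested members rose and 2 fell (edgeR's quasi-likelihood test, Benjamini-Hochberg adjusted p under 0.05), where 48.6% of all tested genes changed (25.2% rose, 23.3% fell). At 12 days, 16 rose and 3 fell, where 49.8% of all tested genes changed (26.4% rose, 23.4% fell). The median log2 fold change of the tested members was 0.58 at 3 days and 0.54 at 12 days, and that of all tested genes was −0.02 and 0.00. By the study's thresholds, ITGA4, ITGA5, LAMA1 and LAMC3 were higher and ITGA10 was lower at 3 days, 5 members, where 8.44% of all genes passed (6.58% higher, 1.86% lower). At 12 days LAMB3 took the place of ITGA5, which again gave 5 members, where 9.11% of all genes passed (6.88% higher, 2.23% lower). LAMA1, without a read in control 3 days, passed the filter on low counts only through SP libraries. Its call by the study's thresholds at 3 days held in 4 of 9 fits with 1 library left out. The reads of the 31 genes together made up 0.583% to 0.611% of the reads of the control 3 days libraries, 0.777% to 0.796% in SP 3 days and 0.738% to 0.789% in SP 12 days, so that neither SP group overlapped with the control. Of the 19 calls at 3 days, 16 held with any 1 of the 9 libraries left out. ITGA1, ITGAE and LAMC1 did not. At 12 days 18 of 19 held and ITGB8 did not, and by the study's thresholds 8 members passed without SP 12 days replicate 3.

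**Figure D2:**
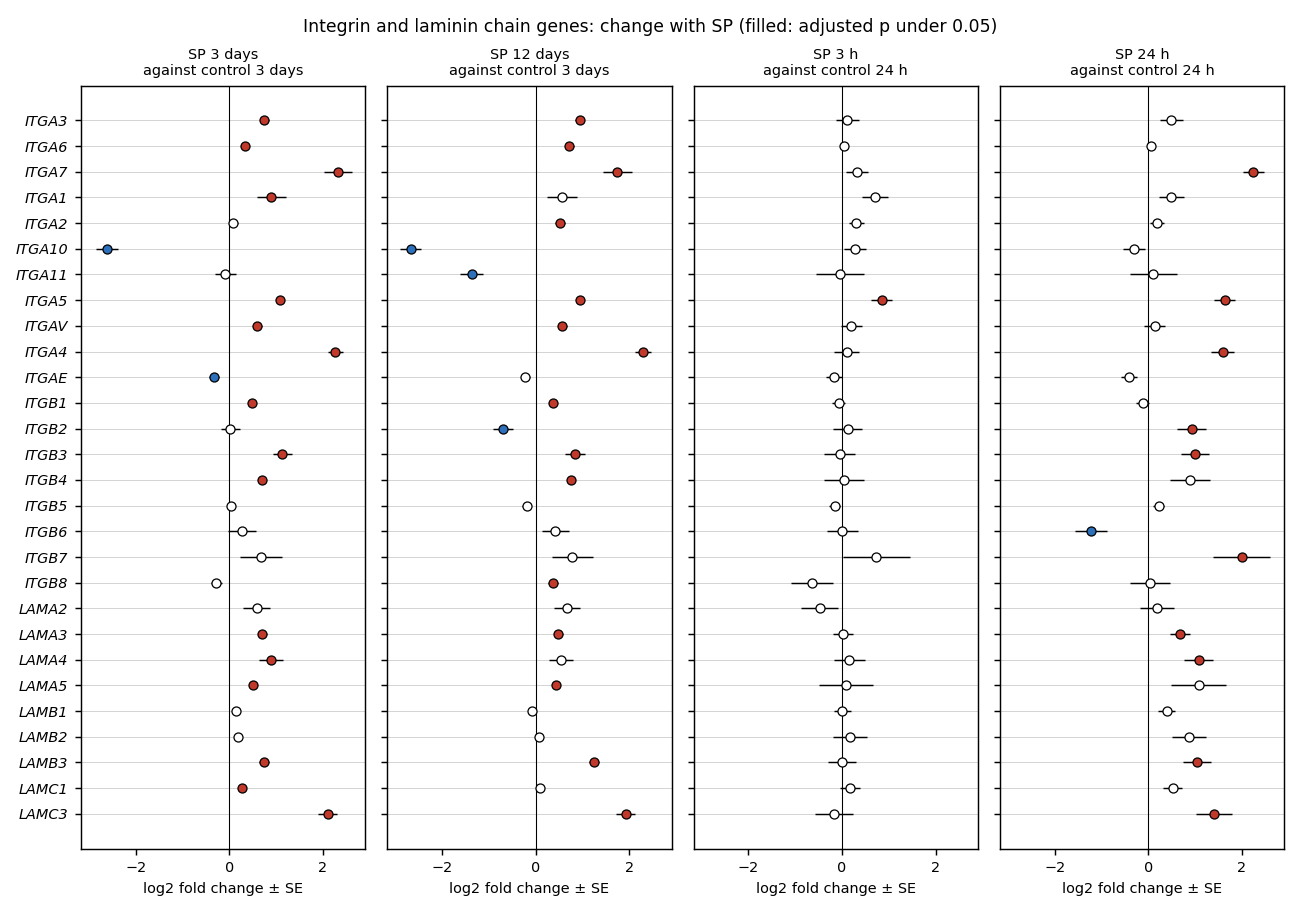
Log2 fold change ± SE (x axis) of 28 members (y axis) in the 4 comparisons with control, 3 libraries against 3. Filled points passed an adjusted p under 0.05 (red higher, blue lower) and open points did not. ITGA8, ITGA9 and LAMA1 are left out because a control held 5 reads or fewer. ITGA10 lies at −2.62 and −2.68 at 3 and 12 days, against −0.31 at 24 h.

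The alpha subunits grouped here as laminin receptors, ITGA3, ITGA6 and ITGA7, rose at 3 and at 12 days, where 25.2% and 26.4% of all tested genes rose. ITGA2, which also binds laminin, is given below with the collagen receptors. ITGA3, the receptor subunit for laminin-332 and LAMA5 laminins, was at 578, 538 and 663 CPM in control 3 days, at 961, 980.2 and 1039 in SP 3 days and at 1185, 1201 and 1033 in SP 12 days. No SP library reached down to a control library, and the log2 fold changes were 0.74 ± 0.10 (SE) at 3 days (adjusted p = 1.1e-05) and 0.94 ± 0.10 at 12 days (adjusted p = 8.4e-07). ITGA6, the alpha subunit of the hemidesmosome, went from 103 ± 7.27 CPM (SD, n = 3) to 131 ± 2.29 and 170.4 ± 19.3. Its log2 fold changes were 0.34 (adjusted p = 0.0057) and 0.72 (adjusted p = 7.3e-06). ITGA7, known as the laminin receptor of muscle, had the largest fold change of these 3 genes, from 7.51, 5.83 and 8.75 CPM to 36.3, 34.9 and 39.6 in SP 3 days and 21.4, 15.8 and 36.7 in SP 12 days. The SP 12 days libraries were unequal, with replicate 3 at the level of SP 3 days, but all lay above the control (log2 fold change 2.32, adjusted p = 0.00028, and 1.74, adjusted p = 0.0015). It did not pass the study's thresholds by edgeR because of its adjusted p, and passed them by DESeq2 at both times (2.33, adjusted p = 7.9e-12, and 1.74, adjusted p = 6.6e-07).

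The 4 alpha subunits that bind collagen were divided. ITGA10, the collagen receptor subunit known from cartilage, was at 12.3, 11.2 and 14.0 CPM in control 3 days, at 1.59, 1.95 and 2.57 in SP 3 days and at 1.33, 1.65 and 2.75 in SP 12 days. The groups did not overlap, and ITGA10 fell by 2.62 ± 0.23 on the log2 scale at 3 days (adjusted p = 1.5e-07) and by 2.68 ± 0.22 at 12 days (adjusted p = 8.3e-08), the only fall in the set by the study's thresholds with edgeR. By DESeq2, ITGA11 also passed them at 12 days (log2 fold change −1.38, adjusted p = 1.5e-05). ITGA11, a fibrillar collagen receptor of fibroblasts, was at 4.17 ± 0.36 CPM in the control and 3.91 ± 0.62 in SP 3 days, which overlapped, and at 1.39, 1.05 and 2.30 CPM in SP 12 days. It fell by 1.37 at 12 days (adjusted p = 0.00026). ITGA2, which pairs with ITGB1 and binds collagen and laminin in epithelia, rose at 12 days (102 ± 10.2 to 145 ± 19.3 CPM, log2 fold change 0.51, adjusted p = 0.00062) and had a log2 fold change of 0.08 at 3 days (adjusted p = 0.52). ITGA1 passed at 3 days (0.90, adjusted p = 0.033), but its adjusted p reached 0.115 with 1 library left out, and 2455 of its exon bases are shared with other genes.

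Among the alpha subunits that bind the RGD motif of fibronectin and vitronectin, both tested members rose at 3 and 12 days, where 25.2% and 26.4% of all tested genes rose. ITGA5, the fibronectin receptor subunit, was at 67.2, 72.4 and 81.0 CPM in control 3 days, at 150.2, 154 and 162 in SP 3 days and at 144, 144 and 137 in SP 12 days. The SP libraries were close to each other and far above the control (log2 fold change 1.08 ± 0.08, adjusted p = 4.1e-08, and 0.95 ± 0.08, adjusted p = 1.4e-07). ITGAV, the alpha subunit that pairs with several beta subunits, had log2 fold changes of 0.60 (adjusted p = 9.3e-05) and 0.57 (adjusted p = 0.00014).

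ITGA4, the alpha subunit of leukocyte receptors for VCAM1 and fibronectin, was at 2.87, 2.69 and 3.37 CPM in control 3 days, at 13.9, 14.0 and 15.1 in SP 3 days and at 17.6, 11.5 and 14.9 in SP 12 days. Both SP groups lay above the control without overlap (log2 fold change 2.27 ± 0.17, adjusted p = 2.9e-08, and 2.29 ± 0.17, adjusted p = 2e-08). Of its exon bases, 2813 are shared with CERKL on the opposite strand, and strand use in counting is not given in the sources used here, so that part of its reads may belong to CERKL. ITGAE, the subunit that binds E-cadherin on the side of lymphocytes, was slightly lower at 3 days (36.4 ± 3.35 to 29.1 ± 1.03 CPM, log2 fold change −0.33, adjusted p = 0.017), a call that was lost when replicate 1 of either group or replicate 3 of the control was left out. ITGA9, a receptor subunit for tenascin, was not tested in this table: 5 reads over the control 3 days libraries stood against 23 in SP 3 days, a depth-scaled ratio of 5.00 (95% counting interval 1.86 to 16.8).

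**Figure D3:**
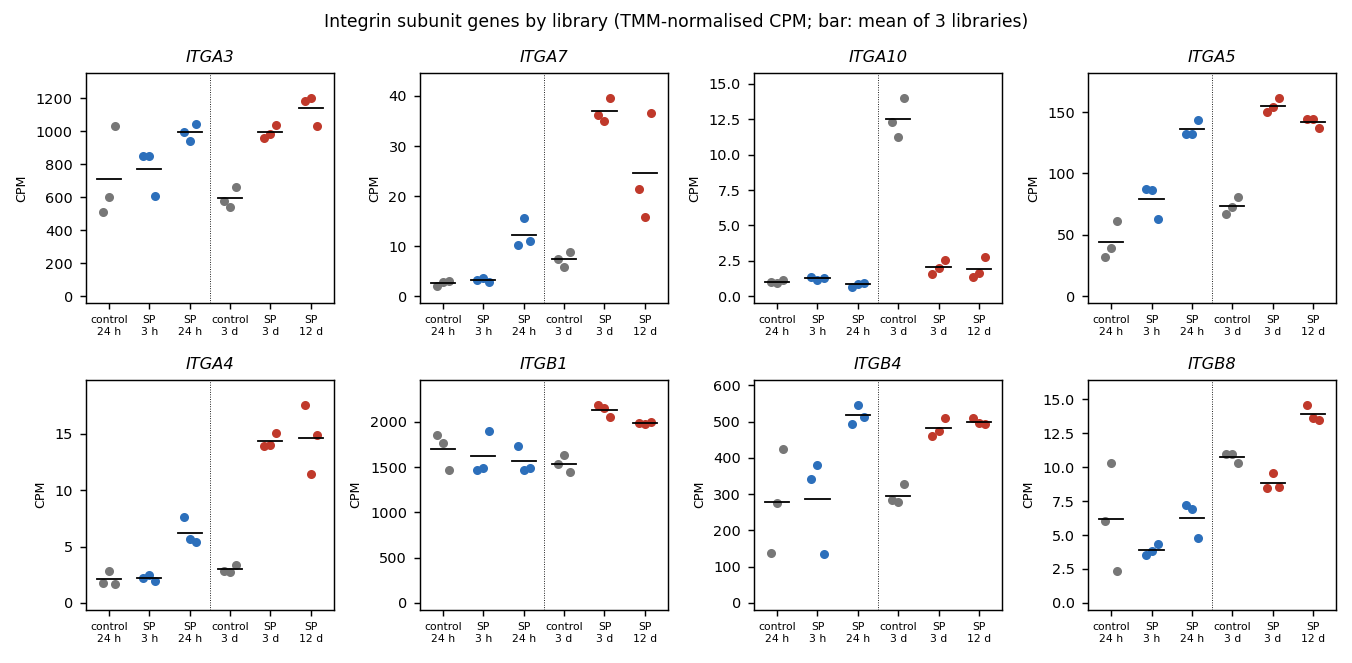
TMM-normalised CPM of 8 integrin subunit genes in each of the 18 libraries (points) with the group mean (bar), on linear axes from 0. Groups left and right of the dotted line come from separate tables. The control 3 days libraries of ITGA10 (11.2 to 14.0 CPM) stand above all others, and ITGA5 is higher in every SP 24 h, 3 days and 12 days library than in its control.

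Of the 8 beta subunits, 3 rose at 3 days, where 25.2% of all tested genes rose. At 12 days 4 rose and 1 fell, where 26.4% rose and 23.4% fell. ITGB1 was at 1529, 1634 and 1444 CPM in control 3 days and at 2187, 2153 and 2054 in SP 3 days, with no overlap (log2 fold change 0.47 ± 0.08, adjusted p = 0.00022), and its log2 fold change at 12 days was 0.37 (adjusted p = 0.0015). ITGB4, the hemidesmosome partner of ITGA6, was at 283, 278 and 327 CPM in the control and at 510.1, 495 and 494 in SP 12 days (0.70 ± 0.08, adjusted p = 5.2e-06, at 3 days and 0.76 ± 0.08, adjusted p = 2.3e-06, at 12 days). ITGB3, the vitronectin receptor subunit of platelets, rose from a low level (1.81 ± 0.33 CPM to 3.96 ± 0.44 and 3.22 ± 0.36, adjusted p = 0.00026 and 0.0029), and 2266 of its exon bases are shared with other genes. ITGB5, the beta subunit of highest level per kilobase of exon in control 3 days, had log2 fold changes of 0.03 (adjusted p = 0.80) and −0.20 (adjusted p = 0.078). ITGB2, the beta subunit of leukocyte integrins, was at 10.2 ± 0.94 CPM in the control and 10.3 ± 1.18 in SP 3 days, and fell at 12 days to 6.18 ± 2.48 (log2 fold change −0.70, adjusted p = 0.013). ITGB8, a receptor subunit for latent TGF-beta, was lower at 3 days without passing (−0.28, adjusted p = 0.055) and rose at 12 days (0.37, adjusted p = 0.0098). ITGB6 and ITGB7 did not pass at either time, at 0.81 and 0.51 CPM in the control.

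Of the 5 laminin alpha chains, 4 rose at 3 days and 3 at 12 days, where 25.2% and 26.4% of all tested genes rose. LAMA1, the alpha chain of embryonic basement membranes, had no read in any library of control 3 days, 44 reads over the SP 3 days libraries and 192 over the SP 12 days libraries. In CPM the SP libraries were at 0.549, 1.16 and 0.957 and at 3.41, 2.84 and 3.59. Against 3 reads over the control group, LAMA1 was at least 15.9-fold higher at 3 days (adjusted p = 1.6e-05) and at least 58.9-fold higher at 12 days (adjusted p = 9.4e-08), and 1754 of its exon bases are shared with other genes. LAMA3, the alpha chain of laminin-332, was at 59.2, 62.0 and 64.5 CPM in the control, at 97.6, 93.4 and 110.3 in SP 3 days and at 97.0, 85.1 and 76.9 in SP 12 days. The groups were apart at both times (log2 fold change 0.70 ± 0.10, adjusted p = 2e-05, and 0.48 ± 0.10, adjusted p = 0.00062). LAMA5 rose by this test (886 ± 64.7 CPM to 1257 ± 73.4 and 1202 ± 50.9, log2 fold change 0.50, adjusted p = 0.00018, and 0.44, adjusted p = 0.00057), but with an offset for GC content and length its log2 fold changes were −0.02 (adjusted p = 0.82) and 0.06 (adjusted p = 0.52). LAMA4, known from vessel walls, rose at 3 days from 1.54 ± 0.17 to 2.87 ± 0.28 CPM (adjusted p = 0.0095) and had an adjusted p of 0.10 at 12 days. LAMA2, the alpha chain of muscle, was at 1.43 ± 0.35 CPM in the control, with adjusted p = 0.11 and 0.060.

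Of the 3 beta chains, LAMB3 rose at both times. LAMB3, the beta chain of laminin-332, was at 27.8, 29.4 and 34.5 CPM in control 3 days, at 46.3, 51.1 and 55.9 in SP 3 days and at 77.4, 74.0 and 65.3 in SP 12 days. The 3 groups were stepwise apart, with log2 fold changes against the control of 0.74 ± 0.11 (adjusted p = 2.8e-05) and 1.24 ± 0.10 (adjusted p = 1e-07). LAMB1, the beta chain of most laminins, had log2 fold changes of 0.14 and −0.08 (adjusted p = 0.20 and 0.45), and LAMB2, the beta chain of synapses and the kidney filter, of 0.18 and 0.07 (adjusted p = 0.10 and 0.57). Of the gamma chains, LAMC1, the most widely used, had log2 fold changes of 0.28 (adjusted p = 0.0091) and 0.08 (adjusted p = 0.40), and its call at 3 days was lost without control 3 days replicate 1. LAMC3, a gamma chain of low level, was at 2.15, 1.38 and 1.95 CPM in the control, at 7.01, 7.86 and 8.97 in SP 3 days and at 7.78, 5.59 and 7.67 in SP 12 days. Its libraries did not overlap with the control (log2 fold change 2.10 ± 0.20, adjusted p = 4.9e-07, and 1.92 ± 0.20, adjusted p = 1.2e-06).

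As a share of the beta chain levels per kilobase, LAMB3 made up 10.9% ± 0.65 (SD, n = 3) in control 3 days, 15.5% ± 0.72 in SP 3 days and 22.8% ± 2.74 in SP 12 days, and LAMB1 54.9% ± 2.11, 51.5% ± 1.17 and 45.6% ± 2.47. All annotated exons counted as length, 18592 bases for LAMB1 and 4647 for LAMB3. The shares in this paragraph depend on these lengths and are not measured shares of transcripts. The share of LAMA3 among the alpha chains was 6.44% ± 0.21, 7.27% ± 0.20 and 6.60% ± 0.94, and LAMA5 held at least 91.9% in every one of these 9 libraries. In the second table LAMB3 made up 19.3% ± 1.64 of the beta chains in control 24 h and 25.1% ± 1.77 in SP 24 h. The untreated libraries at 24 h (18.2% to 21.2%) thus lay above those of SP 3 days (14.7% to 16.1%).

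**Figure D4:**
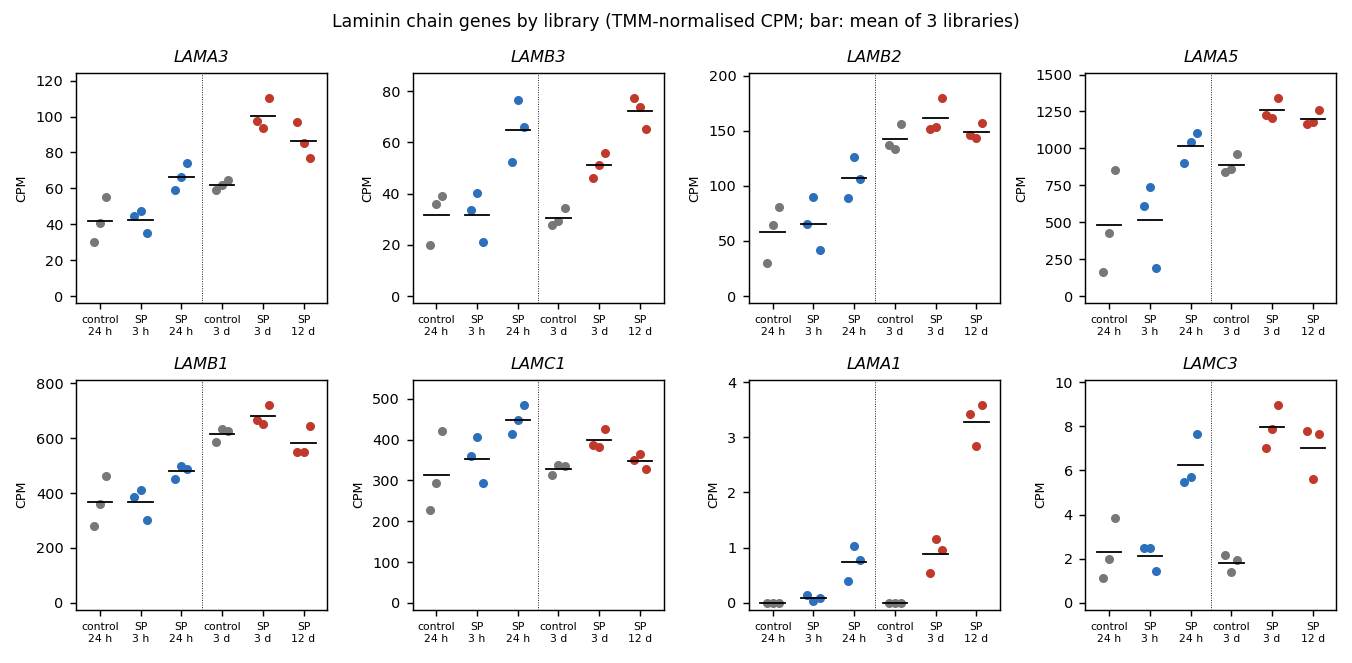
TMM-normalised CPM of 8 laminin chain genes in each of the 18 libraries (points) with the group mean (bar), on linear axes from 0. Groups left and right of the dotted line come from separate tables. LAMB3 steps up from control 3 days to SP 3 days and SP 12 days. LAMA5 spans 164 to 853 CPM among the control 24 h libraries, and LAMA1 is at 0 in all control libraries.

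Members with GC-rich exons moved with the libraries' GC trend. In the first table, the median of GC-rich genes lay below the table's mean in the 3 control libraries (−0.22 to −0.06 on the log2 scale) and above it in the 3 SP 3 days libraries (0.109 to 0.155). With an offset that takes out the library trends in GC content and exon length, the log2 fold changes at 3 days of LAMA5 (GC content 66.4%), ITGB4 (63.6%) and ITGA3 (61.3%) went from 0.50, 0.70 and 0.74 to −0.02, 0.31 and 0.43. ITGB4 and ITGA3 still passed. ITGA10 (53.2%), ITGA4 (39%) and ITGA5 (54.5%) moved little, to −2.70, 2.38 and 0.97. ITGA5 was then under 2-fold, and 4 members instead of 5 passed the study's thresholds at 3 days. What gave the libraries their GC trend was not tested.

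**Figure D5:**
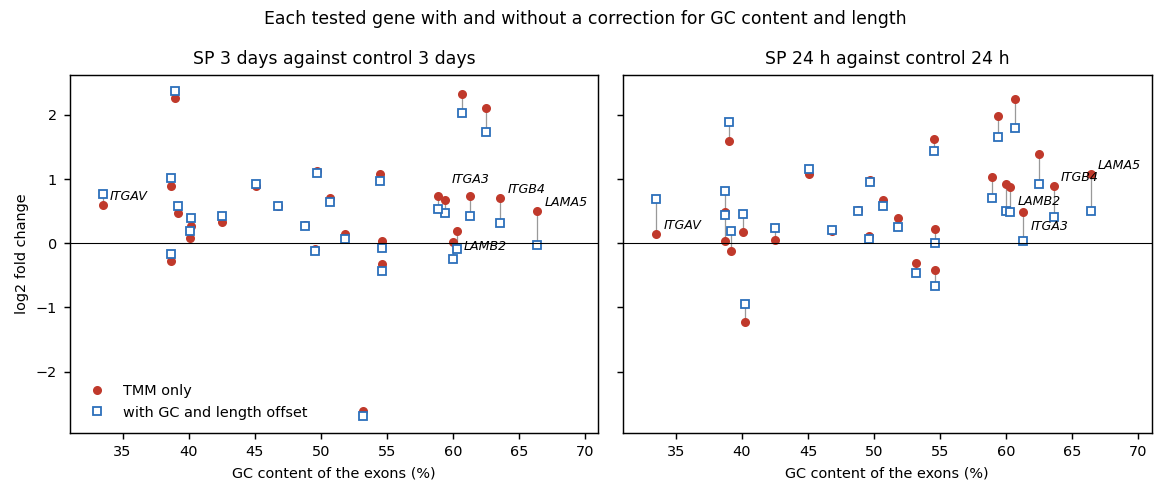
Log2 fold change (y axis) of 28 tested members against the GC content of their exons in percent (x axis), after TMM scaling alone (red circles) and with an offset for GC content and length (open squares), joined by a line for each gene. Left, SP 3 days against control 3 days. Right, SP 24 h against control 24 h. The GC-rich genes, such as LAMA5 at 66.4%, move down with the offset and ITGAV, at 33.5%, moves up.

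SP 12 days and SP 3 days were also compared with each other. Between them 5 members were higher and 1 was lower at 12 days, where 8.1% of all tested genes changed (4.46% higher, 3.65% lower). LAMA1 was higher (log2 fold change 1.88, adjusted p = 0.0014), as were ITGB8 (0.65, adjusted p = 0.0022), LAMB3 (0.50, adjusted p = 0.0072), ITGA6 (0.38, adjusted p = 0.015) and ITGA2 (0.43, adjusted p = 0.017). ITGA11 was lower (−1.28, adjusted p = 0.0052). ITGA11, ITGB8 and LAMA1 passed with any 1 library left out, and the other 3 genes did not. The count was 3 without SP 12 days replicate 1 and 12 (6 higher, 6 lower) without SP 12 days replicate 3. For ITGA7, without replicate 3 of SP 12 days, the log2 fold change became −1.01, where it was −0.58 with it (adjusted p = 0.25). No member passed the study's thresholds in this comparison by edgeR or by DESeq2, where 0.18% of all genes did by edgeR, and 11 members had an unadjusted p under 0.05 in edgeR's test. Without SP 12 days replicate 3, 4 members passed them.

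After 3 h of SP, 1 of 30 tested members passed, where 11.5% of all tested genes changed (7.39% higher, 4.11% lower). ITGA5 was at 31.7, 39.2 and 61.0 CPM in control 24 h and at 87.5, 86.6 and 63.0 in SP 3 h. The nearest libraries of the 2 groups were 61.0 and 63.0 CPM, without overlap (log2 fold change 0.84 ± 0.23, adjusted p = 0.041). The call was lost when any library other than control 24 h replicate 3 or SP 3 h replicate 3 was left out, with an adjusted p of up to 0.14, and with replicate number as a block. Without control 24 h replicate 3, 2 members passed. With the GC and length offset it held (0.79, adjusted p = 0.0023). LAMA1 had 5 reads over the SP 3 h libraries and none in the control (adjusted p = 0.18).

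After 24 h, 12 members rose and 1 fell, where 28.8% of all tested genes changed (16.8% rose, 12% fell). The median log2 fold change of the tested members was 0.59, and that of all tested genes −0.01. ITGA7 went from 1.96, 2.80 and 2.98 CPM in control 24 h to 10.2, 15.6 and 11.0 in SP 24 h, with no overlap (log2 fold change 2.24 ± 0.23, adjusted p = 0.00017). ITGA5 was at 132, 132 and 144 CPM in SP 24 h (1.63 ± 0.23, adjusted p = 0.00099). ITGA4 was at 1.75, 2.85 and 1.65 CPM in the control and at 7.65, 5.64 and 5.40 in SP 24 h (1.59 ± 0.25, adjusted p = 0.0016). LAMA1 had no read in the control and 79 over the SP 24 h libraries (adjusted p = 0.0022). This was 17.6-fold higher than a floor of 3 reads over the control group, and the lower end of the 95% counting interval was 14.0. ITGA9 had 1 read in the control and 57 in SP 24 h, a depth-scaled ratio of 38.2 (95% counting interval 6.58 to 1534, adjusted p = 0.0021). Of its exon bases, 763 are shared with ITGA9-AS1 on the opposite strand. The first 3 of these genes and ITGA9 passed with any 1 of the 9 libraries left out. LAMA1 passed in 7 of these cases, and without SP 24 h replicate 2 or 3 it did not pass the filter on low counts and was not tested.

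The other 8 calls at 24 h were each lost when 1 of several libraries was left out. LAMC3 (log2 fold change 1.40), LAMB3 (1.04), LAMA4 (1.07), LAMA3 (0.67), ITGB3 (0.99), ITGB7 (1.99) and ITGB2 (0.92) were higher and ITGB6, the epithelial receptor subunit for latent TGF-beta, was lower (−1.23). Their adjusted p ran from 0.0235 to 0.0475, and up to 0.153 with 1 library left out. Of the exon bases of ITGB7, 1881 are shared with ZNF740, and 966 of ITGB6 are shared with another gene on the same strand. Without control 24 h replicate 1 or 2, 6 members passed, without SP 24 h replicate 2 there were 4, and without SP 24 h replicate 3 there were 5. No member passed the study's thresholds by edgeR, where 0.685% of all genes did, while 4 passed by DESeq2 and 16 had an unadjusted p under 0.05 in edgeR's test. ITGA3 (log2 fold change 0.48, adjusted p = 0.17), ITGA6 (0.04, adjusted p = 0.70), ITGAV (0.14, adjusted p = 0.66) and ITGB1 (−0.12, adjusted p = 0.53) did not pass at 24 h. With the offset for GC content and length they were at 0.04, 0.24, 0.69 and 0.19, and ITGAV then passed (adjusted p = 0.0032). LAMA5 was at 164, 429.8 and 853 CPM in the control and at 902, 1042 and 1107 in SP 24 h. The spread of its control was wider than that of any other group of this gene, and it did not pass (1.08 ± 0.59, adjusted p = 0.20, and 0.51 with the offset). Of the libraries of equal number in these 2 groups, replicates 1 and 3 deviated together (correlation 0.499 and 0.504). For replicate 2 it was 0.17, and pairs of unequal number reached 0.175, so that the pairing is not established. With the replicate number as a block and these 2 groups alone, a fit chosen after seeing the data, 18 members passed, which added ITGAE (adjusted p = 0.039), ITGB4 (0.046), LAMA5 (0.044), LAMB2 (0.022) and LAMC1 (0.021). With the block over all 9 libraries 12 passed, without LAMA3.

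Between SP 24 h and SP 3 h, 8 members were higher at 24 h and 1 was lower, where 20.1% of all tested genes changed (11.7% higher, 8.4% lower). ITGA7 (log2 fold change 1.92, adjusted p = 0.00097), ITGA4 (1.49, adjusted p = 0.0036), LAMA1 (79 against 5 reads, a ratio of 11.1 with a 95% counting interval of 4.56 to 35.1) and ITGA9 (57 against 2 reads) were among them. ITGA7, ITGA4 and ITGA9 passed with any 1 library left out, and LAMA1 wherever it was tested, which it was not without SP 24 h replicate 2 or 3. ITGA5 (0.78), LAMB3 (1.04), LAMC3 (1.56) and ITGB3 (1.04) were higher and ITGB6 was lower (−1.24), with adjusted p from 0.0217 to 0.0385. In all, 3 members passed without SP 24 h replicate 2 or 3, 4 without SP 3 h replicate 3 and 5 without SP 3 h replicate 1. By the study's thresholds no member passed by edgeR, where 0.0288% of all genes did, and 2 passed by DESeq2, with 15 members at an unadjusted p under 0.05.

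The difference between the effect of SP at 3 days and at 24 h was tested in 1 fit of all 18 libraries, where 6.28% of 18785 genes passed (3.13% positive, 3.15% negative). ITGA10 (−2.26 ± 0.36, adjusted p = 0.0013) and ITGB1 (0.63 ± 0.16, adjusted p = 0.024) passed. ITGA10 was at 1.01, 0.898 and 1.16 CPM in control 24 h and at 0.647, 0.873 and 0.946 in SP 24 h, all of them below the lowest SP 3 days library. Its fall at 3 and 12 days was therefore from a control level (12.5 ± 1.40 CPM) that the control of the other table did not have (1.02 ± 0.13 CPM). Duration of culture, table and library batch cannot be told apart here. The ITGA10 difference held with any 1 of the 18 libraries left out. That of ITGB1 was lost when any of 7 libraries was left out (replicates 1 and 3 of control 3 days, 1 and 2 of SP 3 days, 1 of control 24 h, 2 and 3 of SP 24 h), and with the offset for GC content and length (0.43, adjusted p = 0.051). Without control 24 h replicate 3, 5 members passed. By the study's thresholds no member passed by edgeR, where 0.101% of all genes did, and 1 passed by DESeq2, with 6 members at an unadjusted p under 0.05.

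Other genes of the adhesion pathway were counted in lists written with earlier results of these data known. Of 13 tested basement membrane genes, 13 rose at 3 days (of all tested genes, 25.2% rose), 12 rose and 1 fell at 12 days (26.4% and 23.4%), and 5 rose at 24 h (16.8%). At 3 h, 0 of 13 passed by edgeR or DESeq2, and 0 had an unadjusted p under 0.05 in edgeR's test. The median log2 fold change of this list was 0.99 at 3 days. The nidogens NID1 and NID2, which link laminin to collagen IV, went from 13.7 to 58.5 and from 14.3 to 38.3 CPM at 3 days (2.09, adjusted p = 3.9e-09, and 1.43, adjusted p = 1.4e-07). Both were lower at 12 days than at 3 days (−0.61, adjusted p = 0.0057, and −0.96, adjusted p = 0.00019). SPARC, a collagen-binding matrix protein, rose by 2.33 (adjusted p = 7.4e-08) and COL4A1, a chain of collagen IV, by 1.27 (adjusted p = 1.2e-08) on the log2 scale at 3 days.

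Of 10 hemidesmosome and laminin receptor partner genes, 1 was higher at 3 h, where 7.39% of all tested genes were, 4 at 24 h (16.8%), 7 at 3 days (25.2%) and 9 at 12 days (26.4%). BCAM, a cell surface receptor for LAMA5, rose from 132 ± 13.2 to 426 ± 17.9 CPM at 3 days (log2 fold change 1.69, adjusted p = 0.00062). The syndecan SDC4, a co-receptor of adhesion sites, was higher at 3 h (1.07, adjusted p = 0.0033), 3 days (1.01, adjusted p = 7.6e-08) and 12 days (1.27, adjusted p = 5.2e-09). CD9, a tetraspanin that associates with integrins, was higher at 24 h (0.63, adjusted p = 0.00072), 3 days (0.84, adjusted p = 4.5e-07) and 12 days (1.10, adjusted p = 2.2e-08). DAG1, dystroglycan, a laminin receptor outside the integrin family, had log2 fold changes of 0.37 at 3 days and 0.86 at 24 h (adjusted p = 0.0013 and 0.020).

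Of 26 genes of integrin activation and the adhesion scaffold, 12 rose and 5 fell at 3 days and again at 12 days (48.6% and 49.8% of all tested genes changed), with a median log2 fold change of 0.16 at both times. At 24 h 4 were higher and 5 lower (28.8% of all tested genes changed). At 3 h, 0 of 26 passed by edgeR, with 5 at an unadjusted p under 0.05 and 3 called by DESeq2. TNS4, a tensin that binds the tail of ITGB1, rose at 12 days (136 ± 13.9 to 337 ± 39.2 CPM, log2 fold change 1.31, adjusted p = 7.6e-08), while TNS2, another tensin, fell by 0.86 (adjusted p = 2.1e-06). LIMS2, an adaptor of integrin-linked kinase, rose from 1.15 to 3.41 CPM at 3 days (1.54, adjusted p = 2.3e-05). The kinase PTK2B was higher at 24 h (1.00, adjusted p = 0.027) and lower at 12 days (−0.45, adjusted p = 0.0016).

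Of 22 tested genes that encode other integrin ligands, 13 rose and 3 fell at 3 days, where 25.2% and 23.3% of all tested genes did. At 12 days 14 rose and 6 fell (26.4% and 23.4% of all tested genes). At 24 h 8 rose and 1 fell (16.8% and 12%), and at 3 h 2 rose (7.39%). COL5A1, a collagen chain, went from 77.4 ± 4.34 to 411 ± 8.24 CPM at 3 days (2.41, adjusted p = 3e-11) and COL1A1, the main collagen I chain and also in the fibroblast list above, from 13.3 to 61.9 CPM (2.22, adjusted p = 2.7e-06). ICAM1, a ligand of ITGB2 integrins, was higher at 3 h (1.82, adjusted p = 0.021) and at 24 h (3.11, adjusted p = 0.0005). FGB, a fibrinogen chain, was lower at 12 days (79.3 ± 3.13 to 14.2 ± 14.8 CPM, −2.44, adjusted p = 0.018). Of the family genes outside the set, ITGAX, a leukocyte alpha subunit that pairs with ITGB2, rose from 6.79 ± 1.01 to 48.6 ± 4.79 CPM at 3 days (2.83, adjusted p = 4e-10), and ITGA2B, the platelet alpha subunit, from 2.95 to 5.41 CPM (0.89, adjusted p = 0.0027). The fibroblast marker sum rose in these same groups, as given above, and its part in the collagen and nidogen values was not tested.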

How the data were processed

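Per the study's methods and the submitters' processing notes, the authors sequenced paired-end RNA libraries, aligned them to GRCh38 with STAR 2.7.9a and deposited raw read counts per gene made with featureCounts, in 2 tables of 9 libraries. Strand use is not given in the sources used here, so that reads of overlapping genes may be shared. The members and gene lists were chosen with earlier results of these data known. Genes and exon lengths came from GENCODE v44, which matched 61369 of the 61541 identifiers.

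Genes were kept with filterByExpr (minimum count 10; 17775 and 17377 genes), scaled by TMM and tested with edgeR 4.0.16 (R 4.3.3; robust quasi-likelihood fit on the 9 libraries of a table, or on all 18 for the difference between effects), with Benjamini-Hochberg adjustment over all tested genes. Tests are two-sided. Calls used an adjusted p under 0.05 or the study's thresholds. DESeq2 1.42.0, upper-quartile scaling, no filter, a GC and length offset, a replicate block and leaving out each library were alternatives. Upper-quartile scaling, the block with 2 groups only and leaving out control 24 h replicate 1 with SP 3 h replicate 3 were chosen after seeing the data. Deviations of same-numbered libraries correlated at 0.17 to 0.504 between control 24 h and SP 24 h, which does not establish a pairing, and the labels name none. No main fit used a replicate block. Between the other groups these correlations ranged from −0.592 to 0.377. Libraries of unequal number reached 0.576 (control 24 h replicate 1 and SP 3 h replicate 3). Intervals of read ratios are exact binomial and cover counting error only. Where a control had no read, 3 reads over the group were set as a floor for the fold, which is not an interval. In each list outside the set, up to 4 genes were named: those with the largest absolute fold change in a comparison with control among genes with an adjusted p under 0.05, no overlap between groups and 100 or more reads on average in 1 of the groups. A result of 1 further gene is not reported here. Scripts were tested on simulated data.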

Additional observations from a re-analysis of the deposited data

How the results depend on the processing

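Counts of members are given here under the alternatives that moved them by more than 1.5 times. With the study's thresholds as the call, 5 members passed at 3 days, 5 at 12 days and 0 in each of the other comparisons. At 3 h the count was 0 with upper-quartile factors, with the replicate block, with only the 2 groups compared and with both of these. At 24 h it was 8 without control 24 h replicate 1 and SP 3 h replicate 3, and 4 (DESeq2), 5 (no filter), 2 (GC and length offset) and 1 (offset with the block) passed the study's thresholds. Between SP 24 h and SP 3 h it was 14 with the offset, with or without the block, and 2 passed the study's thresholds by DESeq2 and 2 with no filter. Between SP 12 days and SP 3 days 2 passed these with no filter. For the difference between effects it was 6 with no filter, and 1 passed the study's thresholds by DESeq2 and 1 with no filter.

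With 1 library left out, the counts were 17 to 22 at 3 days, 19 to 23 at 12 days, 0 to 2 at 3 h, 4 to 18 at 24 h, 3 to 12 between SP 12 days and SP 3 days, 3 to 11 between SP 24 h and SP 3 h and 1 to 5 for the difference between effects. By the study's thresholds they were 4 to 7 at 3 days, 5 to 8 at 12 days and 0 to 4 between SP 12 days and SP 3 days. With the replicate block over all groups, the counts were 20, 20, 0 and 12 in the comparisons with control at 3 days, 12 days, 3 h and 24 h, 7 between SP 12 days and SP 3 days, 8 between SP 24 h and SP 3 h and 2 for the difference between effects. In the main fits equal numbers were not taken as pairs in any group.

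Of 4012 recomputed log2 fold changes, 153 changed sign. Of these, 149 were not past the threshold before or after the change, and the other 4 came with the offset for GC content and length. The log2 fold change of LAMA5 at 3 days was −0.0226 with the offset and −0.0234 with the block as well. That of ITGAV between SP 24 h and SP 3 h went from −0.06 to 0.43 and 0.42. The cause was not tested. A further 110 values gained a call and 121 lost one. At this depth, members with few reads (ITGA9, ITGB7, LAMA1 in the controls) allow only wide intervals.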
